A study of Mus musculus with 30 samples.

Results

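Cardiac fibroblasts (CFs), the mesenchymal cells that build the matrix of the heart, were compared between mice 24 months old and neonatal mice. The comparison rested on 4 of the 30 samples of the series, 2 libraries from each age, and covered the 15895 autosomal genes that passed the filter on low counts, of 52442 autosomal genes in the table. All 4 samples were primary wild-type (WT) heart cells kept in culture for 3 days, and the neonatal hearts came from postnatal day 1 to 3. CFs of 3 and of 12 months, with the same genotype and culture and 2 libraries each, served to tell what was particular to 24 months. A separate set of 6 libraries from neonatal, 3-month and 18-month cells carrying LacZ, the control for a reprogramming cocktail, was used as cells that played no part in choosing genes. These LacZ cells were at day 3 after transduction. Per its design text, the series asked why the conversion of CFs to cardiomyocyte-like cells is harder in adult and aged cells. The labels do not say whether the 2 libraries of a group came from separate animals, so each p-value reflects variation between 2 libraries that may be technical.

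Fibroblasts of a newborn heart are dividing cells that lay down fetal matrix proteins. After birth they leave the cell cycle, silence imprinted growth genes and take on adult matrix and immune-signalling genes. In old tissues, fibroblasts are known for low-grade secretion of cytokines, complement and proteases, for cross-linked collagen and for cell cycle exit. Cells taken into culture respond to plastic, serum and a change in oxygen, and all libraries here share that step.

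Depth was 17283764 to 22311330 counts in the 8 CF libraries, so 1 CPM, the read count scaled to library size, was 17.45 to 22.24 counts. Replicates differed by more than sampling noise in each of the 4 groups, with a chi-square per degree of freedom of 2.44 to 2.89. Fibroblast markers summed to 26070 to 48930 CPM in every CF library, and none of the 15 was at 0 at 24 months. Xist, the RNA of the inactive X chromosome, stood at 1277 and 1288 CPM in the neonatal and at 775 and 832.8 CPM in the 24-month libraries, but at 0.287 to 0.479 CPM at 3 and 12 months. The Y-linked Eif2s3y went the other way, with 9.76 to 17.9 CPM in the neonatal and 24-month and 61.1 to 72.0 CPM in the 3- and 12-month libraries. Age and this difference in sex-linked RNA cannot be told apart between the 24-month and the younger adult libraries, and only autosomal genes are reported.

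At 24 months, 4424 autosomal genes were higher and 4220 were lower than in neonatal CFs, which is 27.8% and 26.5% of those tested (edgeR's quasi-likelihood test with Benjamini-Hochberg adjustment over all genes, adjusted p under 0.05). The median log2 fold change over all of them was -0.01. Of the called genes, 1668 rose and 1589 fell at least 2-fold, and 255 rose and 252 fell at least 16-fold. In bulk samples, fewer cells of a type and less RNA per cell cannot be told apart.

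The 10 largest rises among genes with a mean log2 CPM of at least 3 included secreted defence proteins and a protease. Mmp3 stood at 3.66 and 3.81 CPM in the neonatal libraries, 3503 and 3370 at 3 months, 2999 and 2803 at 12 months and 4881 and 5035 at 24 months, a log2 fold change against neonatal of 10.38 ± 0.07 (SE; edgeR, adjusted p = 1.02e-41). Mmp3 encodes stromelysin, a matrix metalloproteinase, and its gene lies at chr9:7445822-7455975 (GRCm38). Cxcl5 stood at 1.13 and 1.93 CPM in the neonatal libraries, 1497 and 1197 at 3 months, 2282 and 2323 at 12 months and 2241 and 1875 at 24 months, which is 10.42 ± 0.29 (SE; edgeR, adjusted p = 5.78e-06) for this neutrophil-attracting chemokine. Ccl11, which encodes an eosinophil attractant, had no count in either neonatal library and 14 and 11.8 CPM at 24 months. It was at least 167-fold higher against a floor of 3 counts over the neonatal group. Zbp1, a sensor of Z-form nucleic acids, rose from 0.328 and 0.455 CPM in the neonatal to 94.4 and 96.1 in the 24-month libraries. No neonatal library reached a 24-month library in these genes because the rule for naming them requires it.

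The 10 largest falls included fetal, epicardial and muscle genes. Upk1b, an epicardial and mesothelial tetraspanin, had 47 and 46.9 CPM in the neonatal libraries and no count at 24 months, at least 663-fold lower against the same floor. Gap43, a growth-associated protein of neurites, fell from 34 and 31.8 CPM in the neonatal to 0.141 and 0 in the 24-month libraries. Dlk1, an imprinted inhibitor of differentiation, went from 58.6 and 53.9 CPM in the neonatal to 0.0938 and 0.285 in the 24-month libraries. H19, the imprinted long non-coding RNA at chr7:142575529-142578143, fell from 213 and 220.5 CPM in the neonatal to 1.83 and 1.09 in the 24-month libraries, a log2 fold change of -7.20 ± 0.10 (SE; edgeR, adjusted p = 5.45e-33). Tnnt2, the troponin T of heart muscle, fell from 794 and 735 CPM in the neonatal to 5.11 and 4.56 in the 24-month libraries. Its fall stood beside that of the whole cardiomyocyte marker list, 18 of 19 members of which were lower, with a summed level of 1154 and 1249 CPM in the neonatal and 42.8 and 45.5 CPM in the 24-month libraries. Of all genes tested, 26.5% were lower. Endothelial markers were lower in 12 of 15, with sums of 1839 and 1845 CPM in neonatal and 721.9 and 734.5 CPM in 24-month libraries. The part of such cells in the falls was not tested.

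A second test asked which genes differed at 24 months from both younger adult ages in 1 direction. For each gene the larger of the p-values against 3 and against 12 months was kept and adjusted over all genes. It called 413 autosomal genes, 322 of them higher and 91 lower at 24 months. Of these, 287 genes were also higher than in neonatal CFs and are called further up here, which is 1.81% of the genes tested, and 65 were also lower than in neonatal CFs and are called further down (0.409%). Another 24 genes (0.151%) had been higher than neonatal at both younger ages and came back at 24 months, and 30 (0.189%) had been lower and came back. The steps were small: the median of the smaller of the 2 differences was 0.34 (log2) among genes further up and -0.35 among genes further down, and it reached 1 in 33 and 5 of them. Without the second 24-month library the counts were 189 further up, 30 further down, 11 back from a higher and 19 back from a lower adult level. Without the second 12-month library, 38 genes were further down and 13 were back from a higher level. Of the 406 genes in the 4 classes, 225 lost the call against both younger ages without at least 1 of the 8 libraries, among them 140 of the genes further up and 52 of those further down, and 181 kept it throughout.

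**Figure D1:**
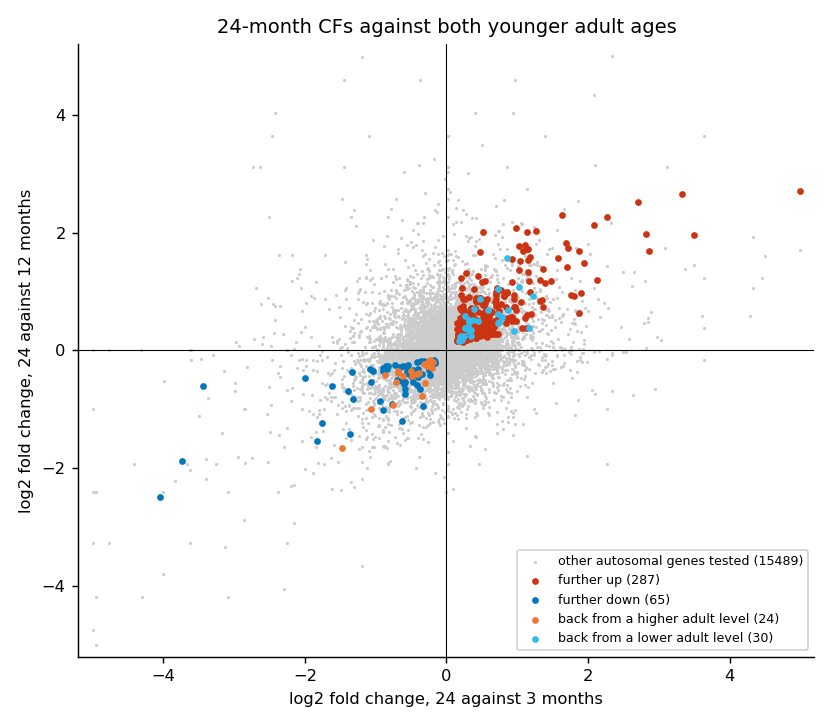
Log2 fold change of each autosomal gene at 24 against 3 months (x axis) and against 12 months (y axis), both from the same 24-month libraries. Grey points are genes in no class, coloured points are the 287, 65, 24 and 30 genes of the 4 classes, and values beyond 5 are drawn at 5. The coloured points lie in the 2 quadrants where both differences have 1 sign because the rule requires it.

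Of genes further up, 258 were above neonatal in their mean at both 3 and 12 months and had climbed again by 24 months, and 29 were not. Among genes further down, 48 had already fallen at both younger ages and 17 had not. In all 287 genes further up and all 65 further down, the 24-month libraries lay apart from all 4 younger adult libraries. Choosing genes that differ from both younger ages favours such a gap, so it is no separate result about the classes or their members. Leaving out predicted genes and pseudogenes, the 12 genes further up with the largest steps, among those with a mean log2 CPM of at least 3, were Emb, Hp, Igfbp3, Saa3, Cpxm2, Slc16a3, Cfb, Cxcl14, Bnip3, Plac8, C1s1 and Hpse. Emb stood at 3.71 and 4.21 CPM in the neonatal libraries, 14.8 and 14 at 3 months, 11.5 and 10.4 at 12 months and 36.8 and 28.8 at 24 months. Emb encodes embigin, a chaperone of monocarboxylate transporters. It rose by 1.19 against 3 months and 1.59 against 12 months (edgeR, adjusted p = 3.22e-09 for both together). Cpxm2, a secreted carboxypeptidase-like protein, had 7.22 and 5.32 CPM at 12 and 21.1 and 20.2 CPM at 24 months. Plac8 lost the call against both younger ages without either neonatal library or either 12-month library (edgeR, adjusted p = 0.0638 to 0.159). Hpse, heparanase, which trims heparan sulfate in the matrix, had 13.4 and 12.6 CPM at 3, 12.8 and 10.8 at 12 and 22.8 and 24.3 at 24 months.

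The glycolysis genes formed the list with the most members further up. Of all genes tested, 27.8% were higher and 26.5% lower at 24 months than in neonatal CFs. Of 22 listed enzymes and transporters, 18 were higher and 1 was lower. Their median log2 fold change against neonatal was 0.38 at 3 months, 0.44 at 12 months and 0.81 at 24 months, values that share the neonatal libraries, beside a median of -0.01 over all genes at 24 months. Further up were 11 of the 22, against 1.81% of all genes tested: the glucose transporter Slc2a1, the kinases Hk1, Pfkl and Pfkfb3, the enzymes Tpi1, Pgam1, Eno1, Eno2 and Ldha, the lactate exporter Slc16a3 and Pdk1, which holds back pyruvate from mitochondria. The count was 10 to 13 when any 1 of the 8 libraries was left out. Against a minimum difference of 1.5-fold from both younger ages, 0 of the 11 were further up. Slc2a3, Pfkm and Aldoc did not pass the test against neonatal. Hk1 lost the call against both younger ages without either 12-month library or the second 24-month library (edgeR, adjusted p = 0.127 to 0.866).

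The letters of promoters are shown for 3 of these genes, all with a match. RefSeq windows (GRCm38.p6) of 250 bases before the transcription start were searched on both strands for ACGTG, the core of the hypoxia response element, which also forms part of the E-box CACGTG. The letters were chosen after the change of these genes was known. They occurred in 10 of the 21 glycolysis genes with a window (47.6%), in 5 of the 11 further up (45.5%), in 58 of the 209 matched genes further up as a whole (27.8%) and in 2704 of all 10999 matched autosomal genes (24.6%). The windows below are those of Ldha (chr7:46845554-46845803, plus strand), Slc16a3 (chr11:120948817-120949066, plus strand) and Slc2a1 (chr4:119108495-119108744, plus strand), written 5′ to 3′ with each match in capitals.
Ldha: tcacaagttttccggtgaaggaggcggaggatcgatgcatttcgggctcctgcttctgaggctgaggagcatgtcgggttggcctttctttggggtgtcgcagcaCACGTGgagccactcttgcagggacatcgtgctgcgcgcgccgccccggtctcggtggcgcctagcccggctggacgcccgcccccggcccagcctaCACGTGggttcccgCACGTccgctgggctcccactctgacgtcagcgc
Slc16a3: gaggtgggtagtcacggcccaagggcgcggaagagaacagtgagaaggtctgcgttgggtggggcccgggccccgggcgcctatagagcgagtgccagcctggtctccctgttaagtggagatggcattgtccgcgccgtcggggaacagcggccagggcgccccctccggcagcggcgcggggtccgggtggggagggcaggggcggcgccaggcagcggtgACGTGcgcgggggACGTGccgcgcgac
Slc2a1: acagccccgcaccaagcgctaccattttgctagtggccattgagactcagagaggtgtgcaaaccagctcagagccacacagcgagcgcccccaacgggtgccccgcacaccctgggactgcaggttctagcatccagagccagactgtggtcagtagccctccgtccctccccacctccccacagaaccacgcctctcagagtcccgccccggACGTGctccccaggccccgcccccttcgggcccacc
Ldha held 5 matches, of which 2 pairs overlap on opposite strands as CACGTG, Slc16a3 held 2 and Slc2a1 held 1. Pfkl, Tpi1, Eno1, Eno2, Pdk1 and Hk1 held none in their windows. A match is a description of letters, and binding was not measured.

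The genes with these windows differed in how they reached their 24-month level. Slc16a3 stood at 24.7 and 21.4 CPM in the neonatal libraries, 44.5 and 51.5 at 3 months, 30.5 and 27 at 12 months and 85.9 and 110.2 at 24 months, so its 12-month libraries were near neonatal and its 24-month libraries stood above all others. It rose by 1.03 against 3 months and 1.77 against 12 months (edgeR, adjusted p = 0.00771 for both together). Ldha stood at 584 and 515 CPM in the neonatal libraries, 889.9 and 889.5 at 3 months, 1107 and 1091 at 12 months and 1301 and 1416 at 24 months, each age above the one before it, which gave 1.31 ± 0.05 (SE; edgeR, adjusted p = 7.32e-19) against neonatal. Slc2a1 stood at 60.7 and 59.9 CPM in the neonatal libraries, 61.2 and 62.1 at 3 months, 62.7 and 60.6 at 12 months and 84.5 and 93.1 at 24 months, with no difference between neonatal, 3 and 12 months beyond 0.03 (log2) in the fitted means. The regulatory kinase Pfkfb3 was highest at 24 months too, with 35.8 and 33.8 CPM in neonatal, 29.1 and 29.9 at 12 months and 56.1 and 63.9 at 24 months. Pdk1 rose by 0.70 against 3 months and 0.94 against 12 months (edgeR, adjusted p = 1.02e-06 for both together). Eno1 has a near-identical copy, Eno1b, which was also further up, so reads may be shared between the 2. Eno1b lost the call against both younger ages without either 12-month library or the second 24-month library (edgeR, adjusted p = 0.123 to 0.659). Of 36 respiratory chain and ATP synthase genes, which use the pyruvate that glycolysis makes, 4 were higher, 8 lower and 24 not called. Their median was -0.01, and none was further up. Of all genes tested, 27.8% were higher, 26.5% lower and 1.81% further up.

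**Figure D2:**
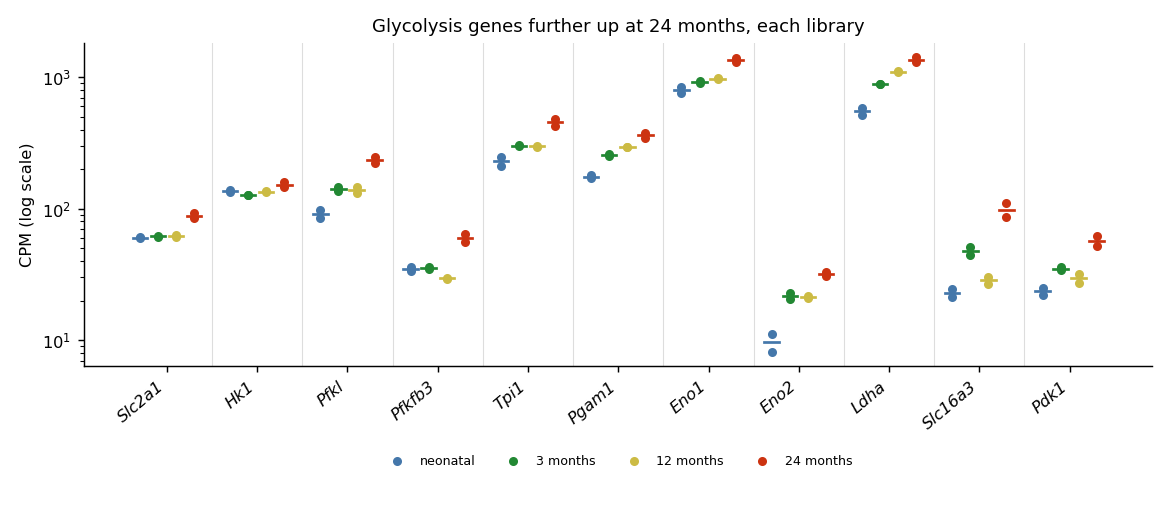
CPM on a log scale (y axis) of the 11 glycolysis genes further up at 24 months (x axis), with 1 point per library, a bar at the mean of the 2 libraries and a colour per age. The 24-month points of each gene lie above the points of all younger ages, as in Slc16a3 at 85.9 and 110.2 CPM. The genes were chosen for being further up, so this order follows from the choice.

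Genes that answer to low oxygen were not a list of their own, but several were found among those further up and were picked out after their values were seen. Bnip3 stood at 30.5 and 27.5 CPM in the neonatal libraries, 53.2 and 53 at 3 months, 54.8 and 51.9 at 12 months and 89.2 and 116 at 24 months. Bnip3, a receptor for the removal of mitochondria, rose by 0.95 against 3 months and 0.95 against 12 months (edgeR, adjusted p = 0.00101 for both together), and its 24-month libraries were the most spread of the 4 ages. Bnip3 lost the call against both younger ages without the second 12-month library (edgeR, adjusted p = 0.0501). Vegfa, the main growth factor of vessels, went from 194 and 201 CPM at 3 months and 193 and 187 at 12 months to 266 and 314 at 24 months, while it had 199 and 182 CPM in neonatal cells. Ddit4, an inhibitor of mTORC1, rose by 0.68 against 3 months and 0.83 against 12 months (edgeR, adjusted p = 3.44e-09 for both together). Hif1a, the oxygen-regulated transcription factor itself, rose by 0.32 and 0.65 (log2) against 3 and 12 months, and Egln1, the prolyl hydroxylase that marks its protein for decay, rose by 0.27 and 0.27. Bnip3l, Epas1, Kdm3a, Ak4, Higd1a and Angptl4 were further up too. Egln1 lost the call against both younger ages without the second 3-month library, the second 12-month library or the second 24-month library (edgeR, adjusted p = 0.0759 to 0.64). Bnip3l lost the call against both younger ages without the second 12-month library or the second 24-month library (edgeR, adjusted p = 0.333 to 0.438). Epas1 lost the call against both younger ages without the first neonatal library, the first 3-month library, the second 12-month library or the second 24-month library (edgeR, adjusted p = 0.0509 to 0.777). Kdm3a lost the call against both younger ages without either 3-month library, either 12-month library or the second 24-month library (edgeR, adjusted p = 0.0587 to 1). Higd1a lost the call against both younger ages without the second 12-month library or the second 24-month library (edgeR, adjusted p = 0.304 to 0.661). Angptl4 lost the call against both younger ages without either 12-month library or the second 24-month library (edgeR, adjusted p = 0.0539 to 0.191). Whether culture density or oxygen differed between ages is not given in the labels, and its part was not tested.

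Of 16 tested acute-phase genes 11 were higher and 1 was lower than in neonatal CFs, with a median log2 fold change of 4.78, close to the 4.79 at 3 months. The shares over all genes tested were 27.8% higher, 26.5% lower and 1.81% further up. The members of the list further up were Saa3, Hp, Steap4 and C3. Hp stood at 0 and 0.284 CPM in the neonatal libraries, 37 and 36 at 3 months, 35.8 and 29.3 at 12 months and 83.5 and 78.6 at 24 months. Hp encodes haptoglobin, which binds free haemoglobin, and it rose by 1.15 against 3 months and 1.32 against 12 months (edgeR, adjusted p = 3.44e-09 for both together). Saa3 stood at 0.516 and 0.227 CPM in the neonatal libraries, 64.1 and 65.7 at 3 months, 50.8 and 36.9 at 12 months and 131 and 157 at 24 months. Saa3, a serum amyloid A of inflamed stroma, was at its highest in the 2 libraries of 24 months, 1.15 against 3 months and 1.72 against 12 months (edgeR, adjusted p = 0.0314 for both together). Saa3 lost the call against both younger ages without either neonatal library or either 3-month library (edgeR, adjusted p = 0.11 to 0.28). Saa3 belongs to a family of similar copies, so its reads may be shared. Steap4 lost the call against both younger ages without the second 12-month library or the second 24-month library (edgeR, adjusted p = 0.252 to 0.375).

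Of 20 complement components and regulators, 10 were higher and 6 lower than neonatal, with a median of 1.18 at 24 months against 0.90 and 0.88 at 3 and 12 months. Over all genes tested, 27.8% were higher, 26.5% lower and 1.81% further up. Of the 20, 6 were further up: C1ra, C1s1, C3, C4b, Cfb and Serping1. C3 stood at 8.35 and 10.2 CPM in the neonatal libraries, 1326 and 1340 at 3 months, 1385 and 1191 at 12 months and 2067 and 2258 at 24 months, which gave 7.88 ± 0.11 (SE; edgeR, adjusted p = 8.37e-14) against neonatal for the central component of the cascade. Cfb stood at 0.0938 and 0.227 CPM in the neonatal libraries, 11.3 and 9.2 at 3 months, 4.47 and 5.08 at 12 months and 19.8 and 20.6 at 24 months, so factor B of the alternative pathway had 24-month libraries above every younger one. C1s1 stood at 5.21 and 4.32 CPM in the neonatal libraries, 165 and 170 at 3 months, 165 and 145 at 12 months and 279 and 331 at 24 months, and this protease of the classical pathway rose by 0.86 against 3 months and 0.98 against 12 months (edgeR, adjusted p = 2.67e-04 for both together). C1ra, C1s1 and C4b have close copies in the mouse genome. C4b lost the call against both younger ages without the second 3-month library or either 24-month library (edgeR, adjusted p = 0.0619 to 0.205). The macrophage genes C1qa, C1qb and C1qc, which complete the classical pathway, went the other way, with C1qb falling from 28.9 and 25.5 CPM in the neonatal to 10.6 and 9.79 in the 24-month libraries.

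**Figure D3:**
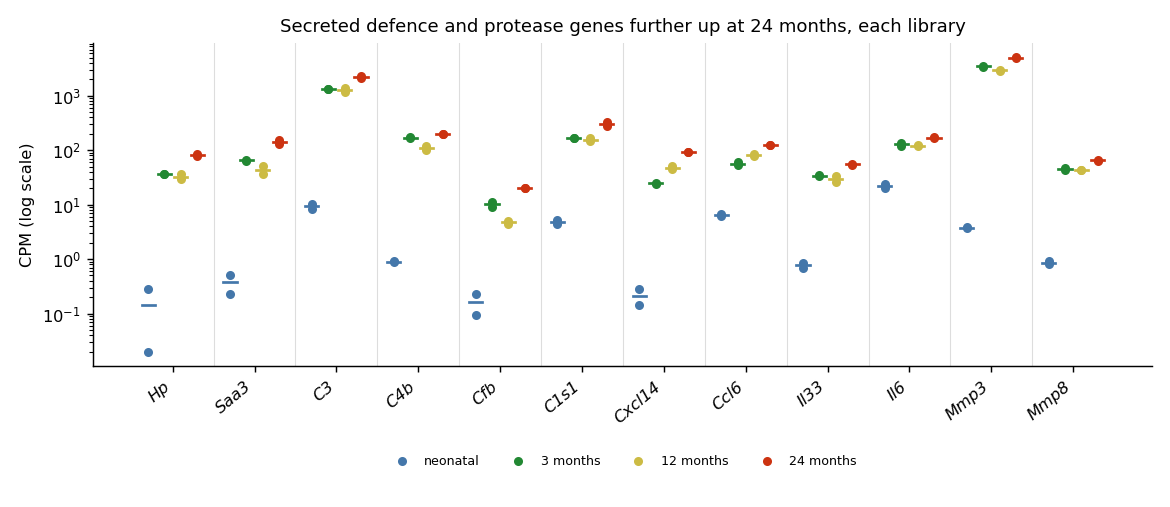
CPM on a log scale (y axis) of 12 secreted genes further up at 24 months (x axis), with 1 point per library, a bar at the mean and a colour per age. A library without a count is drawn at 0.02, as for Hp in 1 neonatal library. The 24-month points are the highest of each gene, which follows from choosing genes that were further up.

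Among 23 chemokine ligands 16 were higher and 2 lower than in neonatal CFs, and Ccl6, Ccl8, Ccl9, Cxcl12, Cxcl14 and Cxcl16 were further up. The shares of all genes tested were 27.8% higher, 26.5% lower and 1.81% further up. Cxcl14 stood at 0.141 and 0.284 CPM in the neonatal libraries, 24.2 and 25.4 at 3 months, 50.2 and 44.5 at 12 months and 94.2 and 90.9 at 24 months, a stepwise climb of 1.90 against 3 months and 0.97 against 12 months (edgeR, adjusted p = 3.15e-12 for both together). Cxcl12 stood at 233 and 230.1 CPM in the neonatal libraries, 924 and 917 at 3 months, 748 and 635 at 12 months and 1221 and 1344 at 24 months. Cxcl12 is the ligand of Cxcr4 that holds blood-forming and immune cells in place, and its 24-month libraries stood above all others. Ccl6 stood at 6.66 and 6.08 CPM in the neonatal libraries, 52.8 and 59.8 at 3 months, 84.8 and 79.5 at 12 months and 123 and 126 at 24 months. Ccl6, Ccl9, Mmp12 and Plac8 are also made by myeloid cells, and the 18 macrophage and monocyte markers summed to 280.7 and 294 CPM at 24 months, 278.6 and 293.9 at 12 months, 174.6 and 203 at 3 months and 410.6 and 418.4 CPM in neonatal CFs. Their part in these genes was not tested. Ccl9 lost the call against both younger ages without either 3-month library or either 24-month library (edgeR, adjusted p = 0.105 to 0.306). Cxcl16 lost the call against both younger ages without the second 24-month library (edgeR, adjusted p = 0.161). The lymphocyte markers summed to at most 1.08 CPM at 24 months, with 7 of 17 at 0, and neutrophil and mast cell markers to 9.99 and 13.02 CPM.

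Of 25 interleukin, TNF family and colony-stimulating genes, 21 were higher than neonatal and none was lower. All genes tested had shares of 27.8% higher, 26.5% lower and 1.81% further up. Further up were Il1r1, Il33, Il6, Lif and Lifr, a count that was 2 without the second 24-month library and 3 without either 3-month library or the second 12-month library. Il1r1 lost the call against both younger ages without either 3-month library, the second 12-month library or either 24-month library (edgeR, adjusted p = 0.0795 to 0.283). Lif lost the call against both younger ages without the second 12-month library or the second 24-month library (edgeR, adjusted p = 0.134 to 0.208). Lifr lost the call against both younger ages without either 3-month library or the second 24-month library (edgeR, adjusted p = 0.105 to 0.396). Il33 stood at 0.844 and 0.682 CPM in the neonatal libraries, 33 and 34.2 at 3 months, 33.4 and 26.3 at 12 months and 54.8 and 54.2 at 24 months. Il33 is an alarmin stored in the nucleus of stromal cells. Il6 had 134 and 120.2 CPM at 3, 119 and 122 at 12 and 171 and 166 at 24 months. The adhesion molecules Icam1 and Vcam1, from the list of NF-kappaB subunits and targets, were the 2 members further up of its 19, and Vcam1 rose by 0.50 against 3 months and 0.45 against 12 months (edgeR, adjusted p = 2.51e-09 for both together).

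All 21 genes of MHC class I presentation were higher than in neonatal CFs, and 7 were further up (H2-K1, H2-D1, H2-Q6, H2-T22, H2-T23, H2-M3 and B2m), a count that was 4 without the second 24-month library. Over all genes tested, 27.8% were higher, 26.5% lower and 1.81% further up. H2-K1 stood at 61.7 and 64 CPM in the neonatal libraries, 318 and 326 at 3 months, 258 and 237 at 12 months and 379 and 438 at 24 months. Class I genes are near-identical copies, so reads may be split among them. H2-Q6 lost the call against both younger ages without the second 24-month library (edgeR, adjusted p = 0.252). H2-M3 lost the call against both younger ages without the first 3-month library or the second 24-month library (edgeR, adjusted p = 0.265 to 0.33). B2m lost the call against both younger ages without either 3-month library or the second 24-month library (edgeR, adjusted p = 0.0865 to 0.522). Of 40 interferon-stimulated effectors, 39 were higher and 1 lower than neonatal, and none was further up, beside 1.81% of all genes tested. The list's median against neonatal was 3.96 at 3 months, 2.57 at 12 months and 3.50 at 24 months. Zbp1 stood at 0.328 and 0.455 CPM in the neonatal libraries, 102 and 92.2 at 3 months, 39.9 and 42.1 at 12 months and 94.4 and 96.1 at 24 months, so this member was lowest of the adult ages at 12 months. Irf7, the master regulator of type I interferon genes, had 94.8 and 89.4 CPM at 3, 28.6 and 32.2 at 12 and 75.7 and 79.5 at 24 months. The kinase Jak2, the interferon receptor chain Ifnar2 and the inhibitor Socs3 were further up among the 25 regulators and sensors. Jak2 lost the call against both younger ages without the second 12-month library or either 24-month library (edgeR, adjusted p = 0.114 to 0.565). Ifnar2 lost the call against both younger ages without the first 3-month library or the second 24-month library (edgeR, adjusted p = 0.414 to 0.467). Socs3 lost the call against both younger ages without the first 3-month library or either 24-month library (edgeR, adjusted p = 0.11 to 0.458).

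Of 23 collagen chains, 6 were higher and 16 lower at 24 months than in neonatal CFs, with a median of -0.93. The shares of all genes tested were 27.8% and 26.5%. No chain was further up, beside 1.81% of all genes tested, a share at which a short list may hold none. Col11a1 stood at 493 and 522 CPM in the neonatal libraries, 49.5 and 48.4 at 3 months, 5.5 and 8.06 at 12 months and 4.5 and 4.56 at 24 months. Col11a1, a fibrillar chain of cartilage and fetal tissue, fell by 3.43 against 3 months and by 0.60 against 12 months on the log2 scale, and was further down with Col15a1, which went from 471 and 497 CPM in the neonatal to 48.6 and 51 in the 24-month libraries. Col11a1 lost the call against both younger ages without the second 12-month library or either 24-month library (edgeR, adjusted p = 0.0862 to 1). Of 18 collagen-modifying enzymes, 13 were higher and 5 lower than neonatal. Those further up included the prolyl hydroxylases P4ha1 and P4ha2, the lysyl hydroxylases Plod1 and Plod3 and the cross-linkers Lox and Loxl3. Bmp1, which cuts off the propeptides, and its enhancer Pcolce2 completed the 8 further up, beside 1.81% of all genes tested. That count was 6 to 8 when any 1 library was left out. P4ha1 lost the call against both younger ages without the second 24-month library (edgeR, adjusted p = 0.0681). Plod1 lost the call against both younger ages without either 3-month library or the second 24-month library (edgeR, adjusted p = 0.106 to 0.952). Lox stood at 1979 and 1886 CPM in the neonatal libraries, 1815 and 1920 at 3 months, 2032 and 2000 at 12 months and 2353 and 2633 at 24 months, so the younger ages lay within 0.06 (log2) of neonatal in the fitted means, and 24 months was higher by 0.42 against 3 months and 0.31 against 12 months (edgeR, adjusted p = 2.53e-05 for both together). Pcolce2 stood at 8.4 and 8.36 CPM in the neonatal libraries, 166 and 167 at 3 months, 214 and 212 at 12 months and 262 and 263 at 24 months, which was 4.97 ± 0.06 (SE; edgeR, adjusted p = 4.23e-34) against neonatal.

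Among 16 metalloproteinases and inhibitors, 7 were higher and 5 lower than neonatal, and Mmp3, Mmp8 and Mmp12 were further up. Of all genes tested, 27.8% were higher, 26.5% lower and 1.81% further up. Mmp8 stood at 0.797 and 0.91 CPM in the neonatal libraries, 46.2 and 43.8 at 3 months, 43.8 and 42.7 at 12 months and 65.2 and 63.9 at 24 months. Mmp8 is a collagenase first known from neutrophils, and the 12 neutrophil and mast cell markers summed to 9.99 and 13.02 CPM at 24 months, 4.24 and 4.18 at 12 months, 14.8 and 20.99 at 3 months and 45.5 and 41.8 in neonatal CFs, with 3 of them at 0 at 24 months. Their part in Mmp8 was not tested. Matricellular genes moved both ways, 8 up and 9 down of 17. Tnc stood at 704 and 730.1 CPM in the neonatal libraries, 742 and 742 at 3 months, 685 and 708 at 12 months and 1121 and 1053 at 24 months, so tenascin C, a matrix protein of wounds, lay within 0.05 (log2) of neonatal at 3 and 12 months and rose by 0.55 against 3 months and 0.64 against 12 months (edgeR, adjusted p = 1.11e-11 for both together). Postn stood at 2582 and 2530 CPM in the neonatal libraries, 238 and 225 at 3 months, 232 and 251 at 12 months and 165 and 187 at 24 months, so periostin fell on from both younger ages. Comp, a pentameric cartilage matrix protein, had 5.53 and 5.56 CPM at 3, 3.5 and 3.53 at 12 and 17 and 17.4 at 24 months. Of 17 smooth muscle contractile genes 16 were lower than neonatal, with Acta2, the actin of myofibroblasts, at 4224 and 4027 CPM in neonatal and 1227 and 1221 at 24 months, and only Synpo2 was further up.

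**Figure D4:**
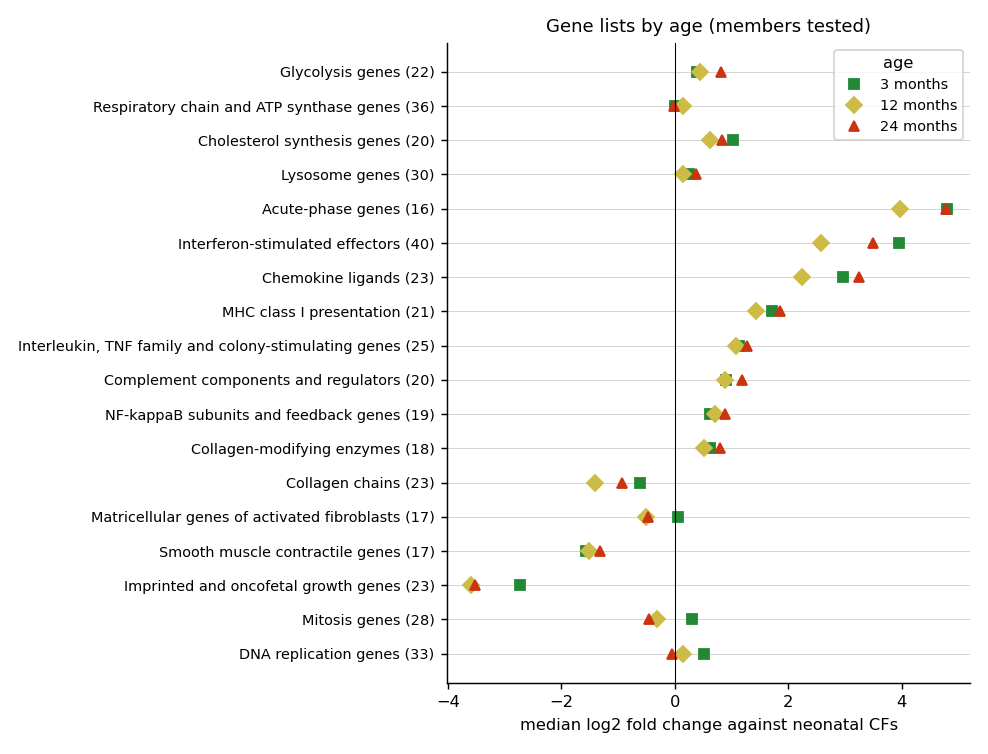
Median log2 fold change against neonatal CFs (x axis) of 18 gene lists (y axis, with the number of members tested) at 3, 12 and 24 months, all against the same neonatal libraries. Glycolysis genes and collagen-modifying enzymes stand highest at 24 months (0.81 and 0.79). So do the chemokine, MHC class I, interleukin, complement, NF-kappaB and lysosome lists (3.24, 1.84, 1.28, 1.18, 0.88 and 0.37). Smooth muscle genes are least low at that age (-1.32). Interferon-stimulated effectors are among the lists highest at 3 months (3.96).

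Among genes further down, Igfbp2 had the largest step. Igfbp2 stood at 98.1 and 84 CPM in the neonatal libraries, 16 and 24.1 at 3 months, 7.45 and 6.17 at 12 months and 0.938 and 1.47 at 24 months. Igfbp2, a binding protein that holds insulin-like growth factors, was lower at each older age, and the log2 fold change was -6.24 ± 0.29 (SE; edgeR, adjusted p = 1.31e-06) against neonatal and -4.04 against 3 months and -2.49 against 12 months (edgeR, adjusted p = 0.0441 for both together). Igfbp2 lost the call against both younger ages without either 12-month library or either 24-month library (edgeR, adjusted p = 0.259 to 0.4). Igfbp3 stood at 56.8 and 51.4 CPM in the neonatal libraries, 169 and 188 at 3 months, 145 and 128 at 12 months and 361 and 429 at 24 months, so the related Igfbp3, which binds the same factors, moved the opposite way by 1.15 against 3 months and 1.53 against 12 months (edgeR, adjusted p = 0.00354 for both together). Of the 18 genes of the IGF axis, 6 were higher and 11 lower than neonatal, beside 27.8% and 26.5% of all genes tested. Imprinted and oncofetal growth genes were lower in 20 of 23 and higher in 2, with a median of -3.53 at 24 months, -2.74 at 3 months and -3.59 at 12 months, and only Rian, a non-coding RNA of the Dlk1 domain, was further down (65.2 and 66.4 CPM at 12 and 50.9 and 55.1 at 24 months).

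Among the other genes further down with the largest steps, Slc38a4 stood at 66.3 and 74.1 CPM in the neonatal libraries, 5.26 and 3.64 at 3 months, 1.09 and 1.34 at 12 months and 0.328 and 0.333 at 24 months. Slc38a4 is an imprinted amino acid transporter, and each age lay below the one before it. Slc38a4 lost the call against both younger ages without the second 12-month library or the second 24-month library (edgeR, adjusted p = 0.0655 to 0.13). Cspg4, the NG2 proteoglycan of pericytes, fell from 302 and 283 CPM in the neonatal to 2.77 and 3.66 in the 24-month libraries. Pericyte markers summed to 909.2 and 912.6 CPM in neonatal and 182.1 and 197.7 at 24 months. Their sums were 231.4 and 259.9 CPM at 3 and 174.8 and 153 at 12 months. Of the 7 tested, 2 were higher and 5 lower than neonatal, and 2 were further up against 1 further down. In the same order, the shares of all genes tested were 27.8%, 26.5%, 1.81% and 0.409%. Cspg4 lost the call against both younger ages without the second 12-month library or the first 24-month library (edgeR, adjusted p = 0.0628 to 0.0862). Cav1, the coat protein of caveolae, had 75.7 and 83.7 CPM at 3, 83.8 and 82.7 at 12 and 49 and 57.1 at 24 months. Npnt, nephronectin of the basement membrane, had 24.1 and 16.5 CPM at 24 months, below all 6 younger libraries, and it fell with Lama5 while Nid2 and Smoc2 of the same list of 18 were further up. Npnt lost the call against both younger ages without the second 12-month library (edgeR, adjusted p = 0.0624). Lama5 lost the call against both younger ages without the first 12-month library or either 24-month library (edgeR, adjusted p = 0.0817 to 0.519). Nid2 lost the call against both younger ages without the second 12-month library (edgeR, adjusted p = 0.0536). Ndst3, Palmd, Evl, Sort1 and Tmeff1 complete the 12. Palmd lost the call against both younger ages without any 1 of the 8 libraries (edgeR, adjusted p = 0.0521 to 0.298). Sort1 lost the call against both younger ages without the second 3-month library, the first 12-month library or either 24-month library (edgeR, adjusted p = 0.0862 to 0.192). Tmeff1 lost the call against both younger ages without the first 3-month library, the second 12-month library or the second 24-month library (edgeR, adjusted p = 0.065 to 0.0856). Ndst3 lost the call against both younger ages without the first 12-month library or the second 24-month library (edgeR, adjusted p = 0.0527 to 0.0681). Evl lost the call against both younger ages without the second 24-month library (edgeR, adjusted p = 0.0615).

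Of 22 TGF-beta and activin genes 10 were higher and 7 lower than neonatal, and Tgfbr1, Tgfbr2 and Acvr2a were among those further up. For this and the next lists, the shares over all genes tested were 27.8% higher, 26.5% lower and 1.81% further up. Tgfbr2 lost the call against both younger ages without the first 3-month library, the second 12-month library or the second 24-month library (edgeR, adjusted p = 0.132 to 0.554). Acvr2a stood at 21.3 and 23.2 CPM in the neonatal libraries, 29.6 and 28.8 at 3 months, 27.5 and 28.3 at 12 months and 40 and 37 at 24 months, so this activin receptor was highest at 24 months. Of 25 axon guidance genes, Slit3, Ntn4, Unc5c and Efna5 were further up, 11 were higher and 14 lower than neonatal, and Unc5c, a netrin receptor, went from 7.69 and 7.62 CPM in the neonatal to 20 and 17.2 in the 24-month libraries. Fgf7, a growth factor for epithelia, rose by 0.62 against 3 months and 0.65 against 12 months (edgeR, adjusted p = 2.05e-07 for both together). In the retinoic acid list, Dhrs3 and Rdh10, which reduce and oxidise retinoids, were further up among 15, with Dhrs3 at 55.8 and 54.5 CPM at 12 and 131 and 134 at 24 months. Rdh10 lost the call against both younger ages without the second 12-month library or the second 24-month library (edgeR, adjusted p = 0.433 to 0.449). Of the 30 lysosome genes 22 were higher and 2 lower than neonatal, and 7 were further up (Ctsb, Ctsh, Ctsl, Ctsz, Man2b1, Npc2 and Psap), a count that was 4 without the second 24-month library. Ctsz lost the call against both younger ages without the second 12-month library or the second 24-month library (edgeR, adjusted p = 0.0715 to 0.22). Man2b1 lost the call against both younger ages without either 3-month library, the second 12-month library or either 24-month library (edgeR, adjusted p = 0.052 to 0.36). Npc2 lost the call against both younger ages without the second 24-month library (edgeR, adjusted p = 0.0571). Cathepsin H, Ctsh, had 71.7 and 70.8 CPM at 3, 63.7 and 63.4 at 12 and 86.8 and 93.6 at 24 months. None of 20 cholesterol synthesis genes, 26 proteasome genes or 18 heat shock genes was further up, beside 1.81% of all genes tested. At that share a short list may hold none, which also applies to the other lists with none further up.

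Of 28 mitosis genes 26 were lower than neonatal and none higher, with a median of -0.46, against 0.31 at 3 months and -0.31 at 12 months. Of all genes tested, 26.5% were lower and 27.8% higher. Prc1 stood at 77.5 and 84.2 CPM in the neonatal libraries, 119.6 and 111 at 3 months, 76.8 and 83.7 at 12 months and 66.6 and 61.9 at 24 months. Prc1, which bundles microtubules of the dividing spindle, was further down by 0.84 and 0.32 (log2) from 3 and 12 months. Prc1 lost the call against both younger ages without the second 12-month library (edgeR, adjusted p = 0.061). Of 33 DNA replication genes, 24 did not pass the test against neonatal. The 4 higher and 5 lower stood beside 27.8% and 26.5% of all genes tested. Mcm5, Gins2 and Rrm2 of that list had been above neonatal at 3 and 12 months and came back, and Mcm2 and Rrm1 were further down. Of all genes tested, 0.151% came back from a higher level and 0.409% were further down. Mcm5 lost the call against both younger ages without the second 24-month library (edgeR, adjusted p = 0.0655). Gins2 lost the call against both younger ages without the second 12-month library or the second 24-month library (edgeR, adjusted p = 0.246 to 0.568). Mcm2 lost the call against both younger ages without either 12-month library or the second 24-month library (edgeR, adjusted p = 0.118 to 0.891). Rrm1 lost the call against both younger ages without the second 12-month library or the second 24-month library (edgeR, adjusted p = 0.484 to 0.555). Rrm2 stood at 68.3 and 77.9 CPM in the neonatal libraries, 108 and 109 at 3 months, 105 and 106 at 12 months and 81.5 and 73.7 at 24 months, so the ribonucleotide reductase subunit Rrm2 was close to neonatal at 24 months, by 0.09 ± 0.06 (SE, log2; edgeR, adjusted p = 0.206).

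The promoter of Mcm5, a subunit of the replicative helicase, is shown as an example of this list because its window holds the letters TTTCGCGC or TTTGGCGC of an E2F site on both strands. The window is chr8:75109259-75109508 (GRCm38.p6, plus strand) with the 2 overlapping matches in capitals.
Mcm5: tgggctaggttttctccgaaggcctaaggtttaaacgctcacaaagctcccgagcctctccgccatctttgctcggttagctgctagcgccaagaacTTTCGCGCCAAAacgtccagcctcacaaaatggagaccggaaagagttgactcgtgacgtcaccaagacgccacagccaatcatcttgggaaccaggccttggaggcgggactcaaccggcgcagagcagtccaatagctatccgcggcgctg
Either 8-letter form, on either strand, was found in 4 of 26 matched replication genes (15.4%) and in 2 of 16 matched genes back from a higher level (12.5%). It was found in none of 209 genes further up and in 150 of 10999 matched autosomal genes (1.36%). Mcm5 counts in both of the first 2 shares. Of the 4 replication genes, Mcm6, Orc1 and Rfc3 were in no class. A match is a description of letters, and binding was not measured.

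Of 10 cell cycle inhibitors and Rb family genes, 5 were higher and 2 lower than neonatal, beside 27.8% and 26.5% of all genes tested. None was further up, beside 1.81% of all genes tested. Cdkn2a stood at 0.797 and 0.91 CPM in the neonatal libraries, 1.26 and 2.35 at 3 months, 1.66 and 2.14 at 12 months and 2.63 and 3.18 at 24 months. Cdkn2a, which encodes p16 and p19, was 1.77 ± 0.32 (SE; edgeR, adjusted p = 2.10e-05) against neonatal, and the 24-month libraries were the highest, but the difference from both younger adult ages did not pass (edgeR, adjusted p = 0.528). Cdkn1a stood at 469 and 441 CPM in the neonatal libraries, 351 and 347 at 3 months, 560.5 and 588 at 12 months and 531 and 551 at 24 months. Cdkn1a, which encodes p21, had a log2 fold change of 0.25 ± 0.04 (SE; edgeR, adjusted p = 4.80e-06) against neonatal and of -0.09 against 12 months. Cdkn2b, the neighbour of Cdkn2a, had 0.65 ± 0.15 (log2, SE) against neonatal. Nr4a3, the nuclear receptor in the title of the series, had 0.797 and 1.59 CPM in neonatal, 2.38 and 2.11 at 3, 3.72 and 4.88 at 12 and 3.52 and 3.33 at 24 months, so its 24-month libraries lay below those of 12 months. Of 24 p53 targets 3 were higher and 10 lower than neonatal, beside 27.8% and 26.5% of all genes tested. None was further up or down, beside 1.81% and 0.409% of all genes tested. Lmnb1, the lamin lost in senescent cells, had 94 and 96.6 CPM in neonatal, 43.4 and 46.3 at 12 and 45.3 and 39.2 at 24 months.

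Some genes came back towards the neonatal level at 24 months. Such genes set the neonatal and 24-month libraries apart from those of 3 and 12 months, as Xist also did. A return with age and the difference in sex-linked RNA cannot be told apart for them. Scara5, a ferritin receptor of fibroblasts, had 24.5 and 26.4 CPM at 3, 22.2 and 22.6 at 12 and 15.1 and 15.9 at 24 months, against 0.704 and 0.682 in neonatal. Lama2 and Lamc1, chains of the laminin of muscle basement membrane, were in the same class. Spp1 stood at 45.3 and 41.8 CPM in the neonatal libraries, 14.4 and 18.2 at 3 months, 20.3 and 16.7 at 12 months and 30.4 and 29 at 24 months. Spp1, osteopontin, was among the 30 back from a lower level with Vldlr, Ppp1r3b, Trabd2b, Tpm1 and Mrc1. Ppp1r3b lost the call against both younger ages without the first 3-month library or the second 24-month library (edgeR, adjusted p = 0.0551 to 0.143). Mrc1, a macrophage mannose receptor, had 46.6 and 48.7 CPM in neonatal, 16.1 and 19.4 at 3, 22.4 and 20.5 at 12 and 31.1 and 28.5 at 24 months. Of the 24 genes back from a higher level 12 did not pass the test against neonatal, and of the 30 back from a lower level 6 did not.

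The classes were then read in the LacZ libraries, which share no sample with the CF libraries. There 3 and 18 months were compared, and Xist was at most 0.568 CPM at both ages, so the sex-linked difference named above was not present between them. Of 15815 autosomal genes tested, 1713 were higher (10.8%) and 1919 lower (12.1%) at 18 than at 3 months. Of the 278 tested genes further up at 24 months, 22 were higher (7.91%) and 159 lower (57.2%) at 18 months, with a median log2 fold change of -0.45. Against neonatal LacZ cells, 108 of the same 278 were higher and 66 lower at 18 months, beside 16.6% and 18.3% of all genes tested. Xist stood at 516.2 and 547.9 CPM in those neonatal libraries, so the sex-linked difference was present in that comparison. Of 65 genes further down, 22 were higher and 11 lower at 18 than at 3 months, and of 24 back from a higher level 13 were higher and 2 lower. More of the genes further up in CFs were thus lower than higher at the older age in LacZ cells. Without the first 18-month LacZ library, 946 genes were higher and 1135 lower, and without the second 14 of the genes further up were higher.

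**Figure D5:**
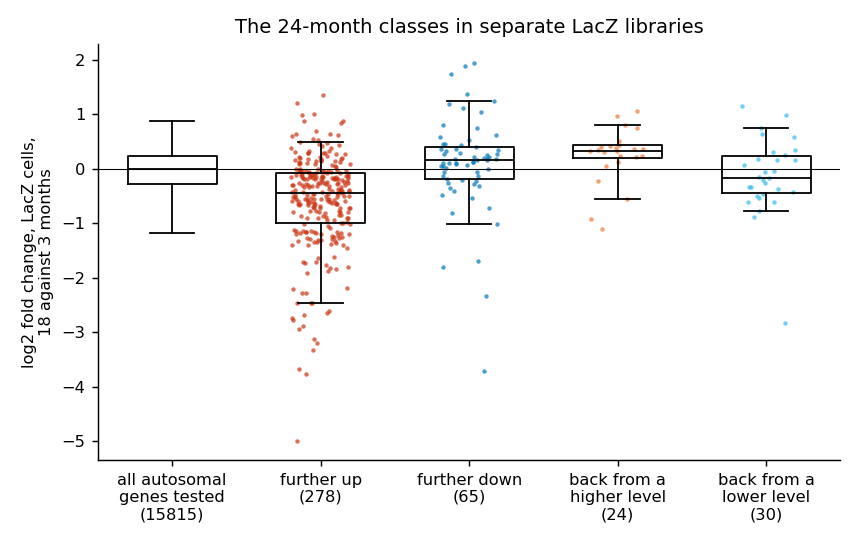
Log2 fold change in LacZ cells at 18 against 3 months (y axis) for all autosomal genes tested there and for the genes of each 24-month class (x axis). Boxes give the middle 50% with the median, whiskers the 5th and 95th percentiles, points are genes, and values beyond 5 are drawn at 5; the genes further up centre on -0.45.

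Slc16a3 had 36.8 and 40.7 CPM in neonatal, 101 and 95.5 in 3-month and 13.2 and 16 in 18-month LacZ cells, -2.75 ± 0.12 (log2, SE; edgeR, adjusted p = 2.65e-15) at 18 against 3 months. Hp had 178 and 193 CPM at 3 and 4.34 and 6.28 at 18 months, and Bnip3 had 104 and 107 at 3 and 25.5 and 30.5 at 18 months. None of the 22 glycolysis genes was higher and 11 were lower at 18 than at 3 months there, and all 40 interferon-stimulated effectors were lower, with a median of -3.68. Among the 22 genes higher in both settings, Cxcl14 was 0.46 ± 0.16, Tnc 0.64 ± 0.10 and Unc5c 1.00 ± 0.15 (log2, SE) in LacZ cells at 18 against 3 months (edgeR, adjusted p = 0.0389, 2.60e-05 and 1.69e-05). Igfbp2, further down in CFs, was higher at 18 months by 1.94 ± 0.18 (log2, SE; edgeR, adjusted p = 3.39e-09), with 3.45 and 3.29 CPM at 3 and 14.2 and 11.7 at 18 months. LacZ cells differ from the CFs in transduction, in schedule (day 3 after transduction against 3 days in culture) and in the older age. The comparison of adult CFs also held the difference in sex-linked RNA, which that of 18- and 3-month LacZ cells did not. These differences cannot be told apart.

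Genes further up were protein-coding in 274 of 287 (95.5%), against 82.5% of all autosomal genes tested and 91.7% of those higher than neonatal. Their median exonic length was 4261 bases, against 3993 over all genes tested, 5688 among genes further down and 4946 among those lower than neonatal. By chromosome, between 0.946% of tested genes (chromosome 13) and 3.03% (chromosome 17, which carries the MHC) were further up.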

How the data were processed

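RNA was sequenced from the cultured CFs, and the deposited values are raw counts per gene; per the submitters' processing notes, reads were trimmed with Trimmomatic 0.36 and counted with featureCounts of Subread 1.5.1 against mm10. The aligner and the strand setting of the counting are not given in the sources used here, and the labels name both polyA RNA and a kit that removes ribosomal RNA. Columns headed 13m and 15m were matched to the samples labelled 12 and 18 months. Gene positions were joined by identifier from GENCODE M21 (GRCm38), and promoter sequences are from RefSeq (GRCm38.p6).

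Counts were scaled by TMM, filtered with filterByExpr and fitted with edgeR 4.0.16 (robust quasi-likelihood, R 4.3.3) with 1 coefficient per age over the 8 CF libraries. Of 56691 genes 16466 passed the filter, and p-values were adjusted over all of them (Benjamini-Hochberg, threshold 0.05). CPM values use the TMM-scaled library sizes. The LacZ libraries lie in a separate table of 12 libraries, with those of the reprogramming cocktail. All 12 were fitted together, apart from the CF libraries. With the 6 LacZ libraries fitted alone, 1336 genes were higher and 1595 lower at 18 than at 3 months. Of the genes further up, 16 were then higher and 150 lower. Named genes are Nr4a3, Cdkn1a, Cdkn2a and Cdkn2b, the 10 largest rises and falls against neonatal, the largest steps of each class (mean log2 CPM of at least 3, libraries not overlapping, no predicted gene or pseudogene) and members of 55 gene lists, by size of change. Other members of the lists are named as part of a count, and further genes were chosen after their values were seen. The members and lists were chosen with earlier results of these data known. Alternatives were RLE scaling, DESeq2 1.42.0, other filters, a 1.5-fold minimum difference, a single contrast, fewer libraries and a replicate block. The code was tested on simulated data. Some genes are not reported here.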

Additional observations from a re-analysis of the deposited data

How the results depend on the processing

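DESeq2 called 35 genes further down and 11 back from a higher level. Against a minimum difference of 1.5-fold, 1852 genes were higher and 1650 lower than neonatal, 14 were further up, 1 was further down, and 0 and 0 were back from a higher and a lower level. One contrast of 24 months against the mean of 3 and 12 months called 1052 genes further up, 568 further down, 209 back from a higher and 213 back from a lower level. With 1 library left out at a time, in which a lone library is assumed to vary like the other groups, 3762 to 4498 genes were higher and 3729 to 4337 lower than neonatal, 189 to 288 further up, 30 to 73 further down, 11 to 27 back from a higher and 19 to 33 back from a lower level. In LacZ cells the same gave 946 to 2213 genes higher and 1135 to 2254 lower at 18 than at 3 months, and 14 to 24 genes further up were higher and 125 to 159 lower.

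The replicate numbers did not pair the libraries (correlations of same-numbered deviations from -0.04 to 0.03). With a replicate block 4360 genes were higher, 4135 lower, 263 further up, 55 further down, 23 back from a higher and 27 back from a lower level, and in LacZ cells 1688 were higher, 1890 lower, with 23 and 158 of the genes further up. RLE scaling called 310 further up and 58 further down. Median log2 fold changes against neonatal reversed for the Schwann cell markers without a filter (-0.35), for the Wnt list at 5 CPM or more in 2 libraries (0.45), and for the AP-1, Egr and Nr4a list at that filter (0.071) and, with 1 library left out, from -0.179 without the first neonatal to 0.064 without the second 24-month library. The causes were not tested. Over the genes of the 4 classes and all settings, the outcome of the test against both younger ages was kept in 5214 cases and lost in 1262.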

Other observations

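Retention of the 24-month classes differed by tool: of 287 genes further up, 214 were also called by DESeq2, which called 221 in all, and each of its 35 genes further down was among the 65. The 14 genes that held a 1.5-fold minimum difference against both younger ages were C130026I21Rik, Ccl8, Comp, Cpxm2, Cxcl14, Emb, Gm15433, Gm7592, Gm7609, Gvin-ps7, Hp, Mdga2, Npy1r and Pcdhb9, and the gene further down was Hunk, a kinase. Gm7592, Gm7609 and Gvin-ps7 are predicted genes or pseudogenes with close copies, so their counts may be shared. The 14 held 2 of the chemokine ligands and 1 of the acute-phase genes further up. They held 0 of those in the glycolysis, collagen-modifying, complement, MHC class I and lysosome lists. The same was true of the interleukin, TGF-beta and axon guidance lists.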
